A study of Caenorhabditis elegans with 12 samples.

Results

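The lysosomal lipase genes lipl-1 to lipl-8 of C. elegans were followed in RNA-Seq libraries of whole worms. All 8 genes were found by symbol among the 46748 genes of the count table, and 7 of them carried enough counts to enter the fit, which tested 14511 genes. Worms were collected as day-1 adults from 3 genotypes, with 4 libraries each: wild type (strain N2), crh-1(syb385) (strain VDL786) and crh-1(n3315) (strain MT9973). crh-1 encodes the C. elegans homolog of the transcription factor CREB. The syb385 allele is a deletion of intronic sequence beside the circularized exon and removes the circular RNA circ-crh-1, whereas n3315 is a mutant of the protein-coding mRNA. Each mutant genotype is a single strain. All worms were synchronized with hypochlorite and grown on E. coli OP50. The labels name no drug, although the general methods of the study describe FUdR, an inhibitor of progeny production, from the L4 larval stage unless stated otherwise. The lipl genes were chosen by family name with the low counts of lipl-1, lipl-2 and lipl-3 in the mutants already known, so the differences of the family between genotypes are given as a description, with no p for any member. Members that passed the call rule of the fit over all genes are counted, and this count is not evidence about the family.

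Lysosomal acid lipases are soluble enzymes that cleave triglycerides and cholesteryl esters in the acidic lumen of the lysosome and release free fatty acids, as human LIPA does. In C. elegans they act largely in the intestine, the main site of fat storage. The transcription factor HLH-30, the homolog of human TFEB, is known to activate lipl-1 and lipl-3 in fasted worms, and MXL-3 is known to repress them in fed worms. LIPL-4 is known for the release of a fatty acid that the carrier LBP-8 takes to the nuclear receptors NHR-49 and NHR-80.

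Total counts per library lay between 16348586 and 25369267. Levels are given as CPM, the reads of a gene for each 1000000 reads of its library, with library totals scaled by the TMM method. The crh-1 count was not lower in the libraries labelled crh-1(n3315), at 47.6 to 52.8 CPM against 38.0 to 47.4 CPM in wild type, so that these labels could not be checked from the counts. The intronic deletion of syb385 cannot be checked in this way either. Wild-type replicate 3 stood apart from the other wild-type libraries on the second principal component, at -44.4 against 12.9 to 43.7. Values without it are given for some results, while the shares of all tested genes are from all libraries. All 9 intestinal marker genes were counted in every library. Their summed level was 2354 to 3761 CPM in wild type and 3489 to 4445 CPM in crh-1(syb385). In the n3315-labelled libraries it was 2220 to 2546 CPM. This sum does not hold for each marker. By fitted log2 fold change against wild type, 7 markers were higher and 2 lower in crh-1(syb385). In the n3315-labelled libraries 5 were higher and 4 lower, with a median of 0.64. Whether intestinal RNA as a whole was lower there was not tested.

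lipl-1, lipl-2, lipl-3 and lipl-6 had lower counts in both mutants than in wild type, the first 3 by more than 10-fold, and no mutant library reached the lowest wild-type library for any of the 4 genes. lipl-5 and lipl-7, the members with the highest levels per length in the mutants, differed far less between genotypes. lipl-4 differed most in crh-1(syb385), and lipl-8 was not counted in any library. In whole-worm RNA, fewer cells that express a gene and less RNA per cell cannot be told apart.

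lipl-1 (WBGene00010062) lies on chromosome V from position 12920007 to 12922116 of the WBcel235 build, on the plus strand, and is 1 of the 2 lipases whose induction in fasting is best known. It gave 15.7, 4.57, 8.72 and 14 CPM in wild-type replicates 1 to 4, then 0.857, 0.453, 0.367 and 0.240 CPM in crh-1(syb385) and 0.379, 1.02, 0.977 and 1.63 CPM in the n3315-labelled libraries. The lowest wild-type library thus lay above each of the 8 mutant libraries. In counts, the wild-type libraries held 98 to 338 reads and the mutant libraries 5 to 32. The fitted log2 fold change was -4.48 (SE 0.50), or 22.2-fold lower, in crh-1(syb385), and -3.43 (SE 0.46), or 10.8-fold lower, in the n3315-labelled libraries. From the lowest value upward, these were ranks 19 and 70 among the 14511 tested genes.

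lipl-2 (WBGene00009773, chromosome V, 9791571 to 9793391, plus strand) encodes another lipase of the family. It gave 18.7, 3.87, 7.19 and 12.5 CPM in wild type, 0.403, 0.0566, 0.839 and 0.671 CPM in crh-1(syb385), and 0.337, 0.562, 0.0931 and 0.409 CPM in the n3315-labelled libraries. Wild type again lay above all mutant libraries, and the mutants overlapped each other. The lowest mutant library held 1 read and the highest 16, so the mutant values rest on few counts. lipl-2 passed the filter on low counts through its wild-type libraries, since only 3 mutant libraries were above the minimum. A filter passed in this way favours genes that are higher in wild type, so passing it adds no evidence of a difference. The fitted log2 fold changes were -4.39 (SE 0.58), 21-fold lower, and -4.91 (SE 0.60), 30.1-fold lower, at rank 22 in both comparisons.

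lipl-3 (WBGene00020016, chromosome V, 521676 to 524218, minus strand) is the other lipase known for its induction in fasting. It gave 62.4, 14.6, 9.31 and 33.7 CPM in wild type, 1.06, 0.849, 1.21 and 2.44 CPM in crh-1(syb385), and 1.39, 2.71, 2.0 and 2.20 CPM in the n3315-labelled libraries. No mutant library came near the lowest wild-type library, although wild type itself spread from 9.31 to 62.4 CPM. The fitted log2 fold change was -4.41 (SE 0.53), 21.3-fold lower, in crh-1(syb385), and -3.86 (SE 0.51), 14.5-fold lower, in the n3315-labelled libraries. The size of the difference rested in part on 1 library: without wild-type replicate 1 the values were -3.76 and -3.21.

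lipl-6 (WBGene00021963, chromosome V, 6931622 to 6934288, minus strand) differed less. It gave 6.32, 5.04, 3.27 and 2.29 CPM in wild type, 1.71, 1.70, 0.839 and 1.15 CPM in crh-1(syb385), and 1.14, 1.23, 1.44 and 1.28 CPM in the n3315-labelled libraries. The lowest wild-type library stood only slightly above the highest crh-1(syb385) library, and the mutants overlapped fully. Fitted log2 fold changes were -1.64 (SE 0.35), 3.12-fold lower, and -1.73 (SE 0.35), 3.32-fold lower.

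**Figure D1:**
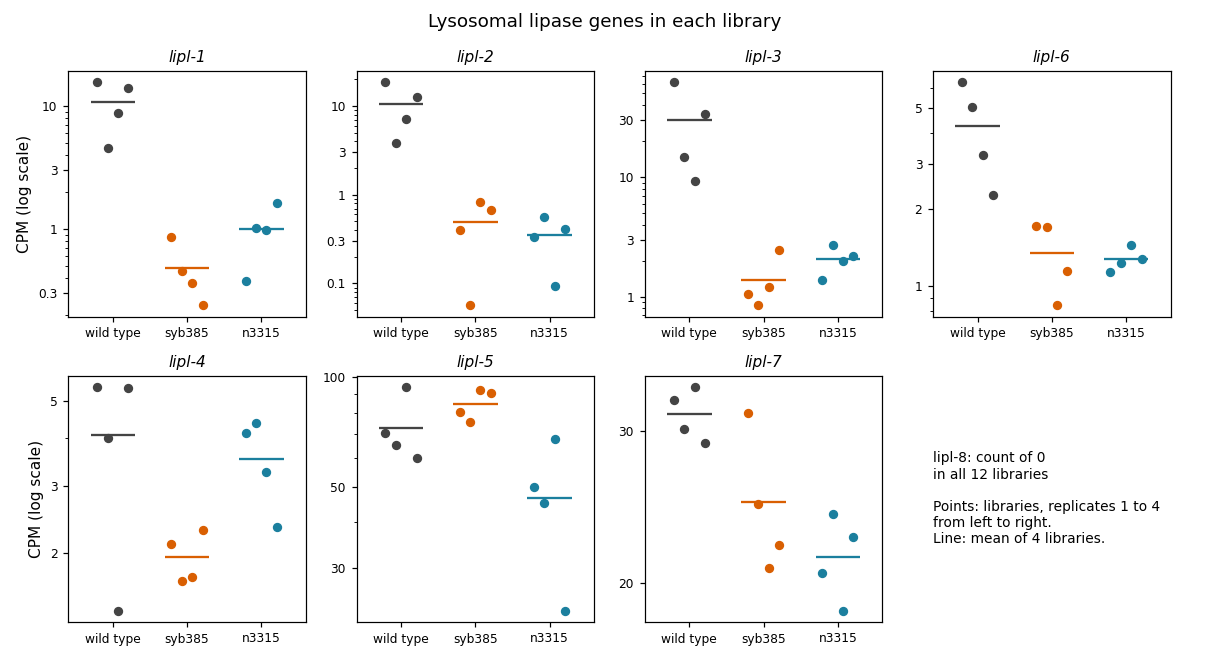
Level of each lysosomal lipase gene in CPM on a log axis, with a separate scale for each gene, for the 3 genotypes. Points are libraries in the order of replicates 1 to 4 and lines are means of 4 libraries. For lipl-1, lipl-2, lipl-3 and lipl-6 all wild-type points sit above all mutant points, lipl-5 sits lowest in the n3315-labelled libraries, and lipl-8 had a count of 0 in all 12 libraries.

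lipl-4 (WBGene00019376, chromosome V, 6550171 to 6551817, plus strand) gave 5.44, 4.01, 1.42 and 5.40 CPM in wild type, 2.12, 1.70, 1.73 and 2.30 CPM in crh-1(syb385), and 4.13, 4.39, 3.26 and 2.35 CPM in the n3315-labelled libraries. Wild-type replicate 3 was lower than every mutant library, so that wild type overlapped both mutants. The fitted log2 fold change against wild type was -1.05 (SE 0.36) in crh-1(syb385) and -1.33 without wild-type replicate 3. It was not called in the fit of all libraries, and passed the call rule in 2 of 18 alternatives, without that library and by DESeq2. Without wild-type replicate 1 the log2 fold change was -0.87, less than 2-fold. In the n3315-labelled libraries it was -0.21 (SE 0.34). All 4 n3315-labelled libraries lay above all 4 of crh-1(syb385), by 0.85 (SE 0.36) on the log2 scale. K04A8.15 lies across lipl-4 on the opposite strand and held 3 reads in all libraries together. Neither strand nor the treatment of reads shared between genes was named for the counting. The low count of K04A8.15 therefore cannot show whether lipl-4 lost reads to the overlap.

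lipl-5 (WBGene00022642, chromosome V, 385737 to 388090, plus strand) had the family's highest mean level per length in every genotype, though not every library. It gave 70.5, 65.1, 93.9 and 60.05 CPM in wild type, 80.3, 75.2, 92.3 and 90.3 CPM in crh-1(syb385), and 50.2, 45.1, 67.8 and 22.9 CPM in the n3315-labelled libraries. The libraries of crh-1(syb385) lay within the range of wild type, while 3 of those labelled n3315 were below every other library. The fitted log2 fold change was 0.22 (SE 0.23) in crh-1(syb385) and -0.64 (SE 0.23) in the n3315-labelled libraries, and the 2 mutants, whose libraries did not overlap, differed by -0.86 (SE 0.23). Replicate 4 labelled n3315 was the lowest, and without it the last difference was -0.63.

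lipl-7 (WBGene00008510, 10239278 to 10241859, minus strand) was the only member outside chromosome V, on chromosome IV. It gave 32.6, 30.2, 33.7 and 29.0 CPM in wild type, 31.5, 24.7, 20.8 and 22.1 CPM in crh-1(syb385), and 20.6, 24, 18.6 and 22.6 CPM in the n3315-labelled libraries. crh-1(syb385) replicate 1 lay within wild type, whereas all n3315-labelled libraries lay below it. The fitted log2 fold changes were small, at -0.34 (SE 0.14) and -0.55 (SE 0.14), the latter 1.46-fold lower. lipl-8 (WBGene00013050, chromosome V, 14745684 to 14748708, minus strand) had a count of 0 in each of the 12 libraries. With 3 counts as the limit that a count of 0 allows, this leaves up to 0.125 to 0.170 CPM per library, depending on its total, and 0.0122 CPM over all libraries together. These limits cover counting error only.

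A gene was called where its adjusted p in edgeR's quasi-likelihood test over all tested genes was below 0.05 and its change at least 2-fold. By this rule 4 of the 7 tested members were called lower in crh-1(syb385), where 4.48% of all tested genes were called lower. The same number was called lower in the n3315-labelled libraries, where the share of all tested genes was 11.2%. In both comparisons the 4 were lipl-1, lipl-2, lipl-3 and lipl-6. The comparisons share their wild-type libraries, and the members were chosen with these contrasts known, so nothing is read from the counts. Between the mutants 0 members were called, where 3.88% of all tested genes were called in either direction. The median log2 fold change of the 7 members was -1.64 in crh-1(syb385), -1.73 in the n3315-labelled libraries and -0.09 between the mutants, and that of all tested genes was -0.05, -0.04 and -0.02.

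Direct comparison of the mutants left each of the strongly lowered members within overlapping libraries. lipl-1 was 1.04 (SE 0.52) higher on the log2 scale in the n3315-labelled libraries than in crh-1(syb385), lipl-3 was 0.55 (SE 0.54) higher, and lipl-2 and lipl-6 gave -0.52 (SE 0.68) and -0.09 (SE 0.36). Libraries of the mutants did not overlap for lipl-4, where those labelled n3315 were higher, and for lipl-5, where they were lower. Among all tested genes such separation occurred for 19.2% in the higher and 14.3% in the lower direction. Against wild type, the libraries of crh-1(syb385) lay below without overlap for 4 members (8.95% of all tested genes), and those labelled n3315 for 5 (18.2%), lipl-7 being the fifth.

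**Figure D2:**
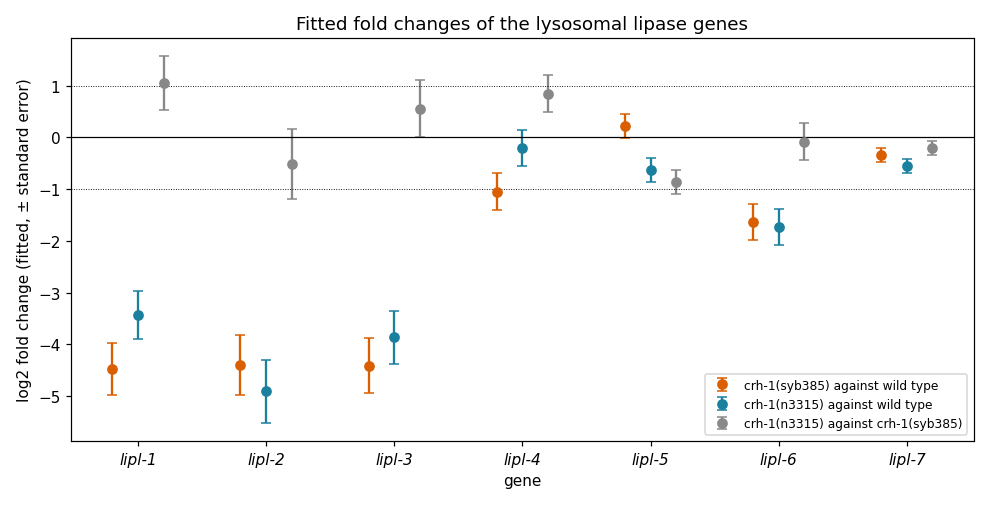
Fitted log2 fold change of each tested member with its standard error, in each mutant against wild type and between the mutants; dotted lines mark 2-fold. lipl-1, lipl-2 and lipl-3 lie between -4.91 and -3.43 in both mutants, lipl-6 near -1.7, and lipl-4, lipl-5 and lipl-7 between -1.05 and 0.22.

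To compare the members with one another, CPM values were divided by exonic length in kilobases. In wild type lipl-5 led with 44.6 CPM per kb, followed by lipl-7 (23.6), lipl-3 (22.1), lipl-1 (8.13), lipl-2 (7.44), lipl-4 (3.17) and lipl-6 (2.41). Only lipl-5 and lipl-7 were separated from each other in their libraries, and every other pair of neighbours in this order overlapped. In crh-1(syb385) the order of levels per kb was lipl-5 (52.1), lipl-7 (18.6), lipl-4 (1.53), lipl-3 (1.02), lipl-6 (0.768), lipl-1 (0.362) and lipl-2 (0.346). There lipl-5, lipl-7 and lipl-4 were separated, and the members from lipl-4 downward overlapped with their neighbours. In the n3315-labelled libraries lipl-5 (28.7 CPM per kb) overlapped with lipl-7 (16.1). lipl-4 (2.75), lipl-3 (1.53), lipl-1 (0.757) and lipl-6 (0.723) followed, each overlapping the next. lipl-2 (0.246) was the lowest, below every library of lipl-6 but overlapping with lipl-1.

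Summed over the family, the level was 112 ± 25.6 CPM per kb (SD, n = 4) in wild type, 74.8 ± 4.41 in crh-1(syb385) and 50.8 ± 10.3 in the n3315-labelled libraries. The ranges of 85.8 to 147, 68.2 to 77.5 and 36.8 to 61.4 did not overlap. lipl-1, lipl-2 and lipl-3 together made up 48.4%, 19.8%, 17.7% and 40.8% of this sum in the 4 wild-type libraries. They made up 1.48% to 3.18% in crh-1(syb385) and 2.99% to 8.53% in the n3315-labelled libraries. The mean share of lipl-5 was 41.5% in wild type, 69.7% in crh-1(syb385) and 54.7% in the n3315-labelled libraries, and that of lipl-7 was 21.8%, 24.9% and 33.1%.

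**Figure D3:**
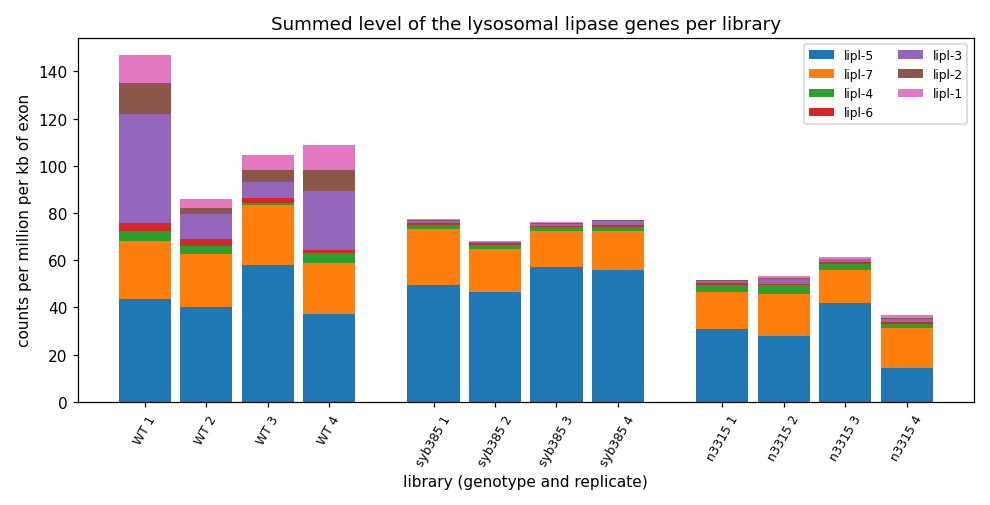
Summed level of the lysosomal lipase genes in each library, in CPM per kb of exon, stacked by gene from lipl-5 at the base. The wild-type bars reach 85.8 to 147 and hold a visible layer of lipl-1, lipl-2 and lipl-3, whereas the mutant bars consist mainly of lipl-5 and lipl-7.

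The 3 members with the largest fold differences, lipl-1, lipl-2 and lipl-3, also varied most among the wild-type libraries. The coefficient of variation of CPM over the 4 wild-type libraries was 79.9% for lipl-3, 61.4% for lipl-2, 47.4% for lipl-1, 46.4% for lipl-4, 42.6% for lipl-6, 20.6% for lipl-5 and 6.85% for lipl-7, against a median of 24.8% over all tested genes. Wild-type replicates 1 and 4 held the highest levels of lipl-1, lipl-2 and lipl-3. The same libraries held the highest levels of the fasting-responsive gene fmo-2, at 126 and 96.1 CPM against 45.7 and 29.1 CPM in replicates 2 and 3. The acid ceramidase gene asah-1 was also highest in replicates 1 and 4, at 56.0 and 46.1 CPM against 23.5 and 28.7 CPM. So was hlh-30, at 158 and 121 CPM against 96.6 and 76.5 CPM. In contrast, lipl-5, lipl-6 and lipl-7 were lowest in wild-type replicate 4. Replicates 1 and 4 were also highest on the second principal component of all tested genes, at 43.7 and 20.6 against 12.9 and -44.4. How many of all tested genes were highest in these libraries was not counted, so nothing is read from fmo-2, asah-1 and hlh-30.

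Other genes with the most similar profile over the 12 libraries were sought for each member by Pearson correlation of log2 CPM, as a description in which genotype differences and shared libraries both enter. lipl-1 was closest to aagr-1 (r = 0.952), del-5 (0.948) and F36F2.2 (0.944). aagr-1 encodes an acid alpha-glucosidase, a relative of the lysosomal enzyme that degrades glycogen. lipl-2 was closest to dct-1 (0.950), Y25C1A.14 (0.943) and frm-2 (0.942), and lipl-3 to C32F10.4 (0.967), F18C5.10 (0.963) and F38E9.1 (0.963). For lipl-6 the nearest were ztf-27 (0.959), best-16 (0.939) and D2030.3 (0.937), and for lipl-4 rpom-1 (0.946), F35D11.3 (0.938) and Y50D4C.3 (0.935). The closest gene to lipl-5 was C17F4.7 (0.922), with T07F12.4 (0.877) and R12E2.15 (0.874) next. lipl-7 was nearest to idpp-4 (0.931), F54F7.3 (0.923) and pqn-89 (0.916). No member was among the 3 nearest genes of another, but lipl-1, lipl-2 and lipl-3 correlated with one another at 0.877 to 0.933. lipl-6 correlated with these at 0.745 to 0.831, and all other pairs of members lay between -0.329 and 0.797.

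The genes around the lipases in lipid metabolism were examined in 6 lists with 82 genes in all, of which 71 were tested. By rule, up to 4 genes per list were named because they were called here with the largest changes. Their adjusted p values carry this choice, as do those of genes named after their values were seen. Of the tested list genes, the numbers called were as follows. In crh-1(syb385) 2 rose and 9 fell, where 2.24% of all tested genes rose, 4.48% fell and 6.72% were called in either direction. In the n3315-labelled libraries 4 rose and 11 fell, where 4.17% of all tested genes rose, 11.2% fell and 15.4% were called in either direction. Their median log2 fold changes were -0.14 and -0.12. Between the mutants 1 gene was called as higher in n3315 (1.49% of all tested genes). It was fat-7, a stearoyl-CoA desaturase gene chosen after its values were seen, which was 1.06 (SE 0.19) higher on the log2 scale (adjusted p = 0.00275).

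Of 15 transcription factors and other regulators connected with lysosomal lipases, 1 was called in either mutant. Of all tested genes, 6.72% were called in crh-1(syb385) and 15.4% in the n3315-labelled libraries, in either direction. hlh-11, whose product is known in C. elegans as a repressor of lipid breakdown genes, gave 12, 8.77, 8.39 and 8.85 CPM in wild type, 23.7, 27.3, 20.5 and 23.6 CPM in crh-1(syb385), and 39.9, 41.0, 36.7 and 40.4 CPM in the n3315-labelled libraries. The 3 genotypes were fully separated. hlh-11 rose by 1.32 (SE 0.14, adjusted p = 2.49e-05) and 2.05 (SE 0.14, adjusted p = 1.39e-07) on the log2 scale. The mutants differed by 0.73 (adjusted p = 0.00287).

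The regulators best known for lipl-1 and lipl-3 gave smaller values. hlh-30 had log2 fold changes of -0.43 (SE 0.17, adjusted p = 0.106) in crh-1(syb385) and -0.46 (SE 0.17, adjusted p = 0.0435) in the n3315-labelled libraries, less than 2-fold. mxl-3 had 0.52 (SE 0.22, adjusted p = 0.132) and 0.56 (SE 0.22, adjusted p = 0.0543). For the nuclear receptor genes downstream of LIPL-4, nhr-49 gave -0.17 and 0.24 (adjusted p = 0.46 and 0.192) and nhr-80 gave 0.13 and 0.44 (adjusted p = 0.797 and 0.199). None of these 4 genes was called, and their RNA level does not measure the location or activity of the protein.

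**Figure D4:**
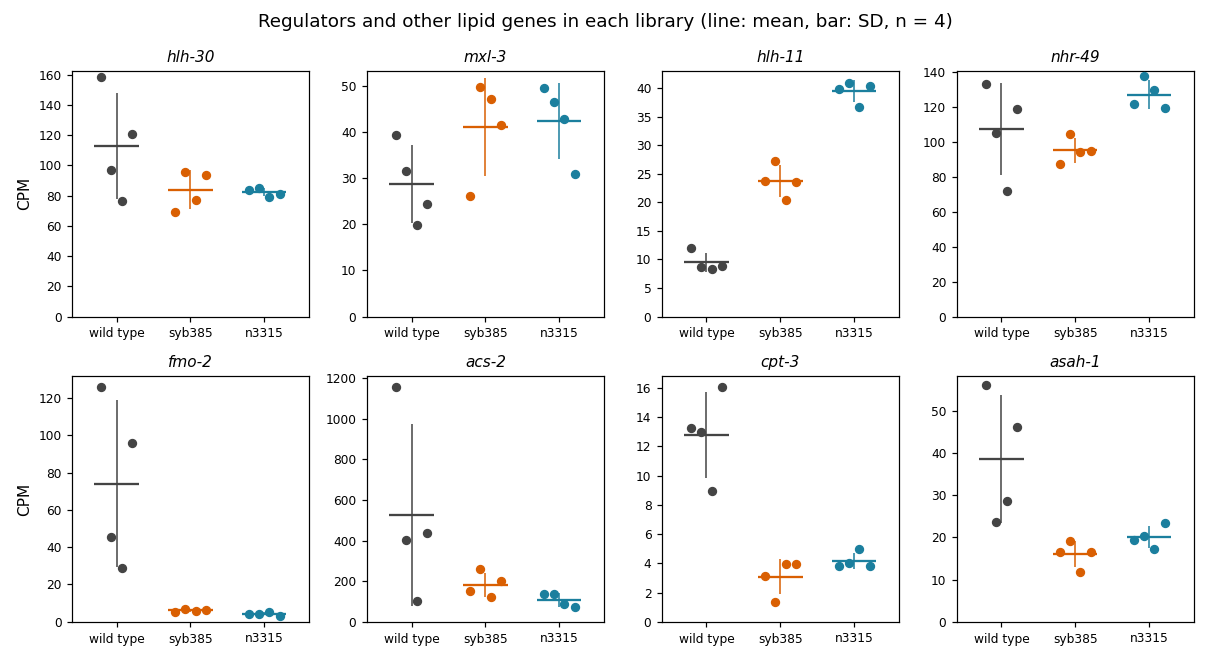
Level in CPM of 4 regulators (upper row) and 4 lipid metabolism genes (lower row) in each library by genotype, with the mean and SD of 4 libraries; each axis starts at 0. hlh-11 is lowest in wild type and highest in the n3315-labelled libraries, the ranges of hlh-30 overlap between all genotypes and those of nhr-49 between wild type and each mutant, and fmo-2 is at 29.1 to 126 CPM in wild type and below 7 CPM in the mutants.

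Among 10 tested fat metabolism genes that are known to respond to fasting, 5 fell in crh-1(syb385), and 5 fell and 1 rose in the n3315-labelled libraries. Of all tested genes, 4.48% fell in crh-1(syb385), and 11.2% fell and 4.17% rose in the n3315-labelled libraries. The list was not split by the direction in which each gene responds to fasting, and its medians were -0.94 and -1.26. fmo-2, a flavin-containing monooxygenase gene that HLH-30 is known to activate, fell by 3.59 (SE 0.36, adjusted p = 1.67e-05) and 4.12 (SE 0.37, adjusted p = 1.64e-06) on the log2 scale, with mutant libraries at 3.37 to 6.96 CPM. cpt-3, a carnitine palmitoyltransferase gene of fatty acid import into mitochondria, fell by 2.05 (SE 0.28, adjusted p = 0.000216) and 1.62 (SE 0.28, adjusted p = 0.000308). Both were lower than wild type in all 8 mutant libraries.

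Other genes of this list rested on fewer counts or on some libraries. acs-2, the acyl-CoA synthetase gene of mitochondrial beta-oxidation and a known NHR-49 target, spread from 103 to 1156 CPM in wild type. It fell by 1.52 (SE 0.48, adjusted p = 0.0413) and 2.28 (SE 0.49, adjusted p = 0.00183), and the first call was lost in 12 of 18 alternatives. fil-1, a lipase gene induced in fasting, was at 0.280 to 4.28 CPM in wild type. It fell by 2.89 (SE 0.85, adjusted p = 0.0299) and 4.35 (SE 0.96, adjusted p = 0.00207), with libraries that overlapped wild type in both mutants. The first call was lost in 6 of 18 alternatives. Which libraries carried fil-1 past the filter on low counts is not given here. hacd-1, named after its values were seen, fell by 1.13 (adjusted p = 0.0218) and 1.78 (adjusted p = 0.000484). fat-7 rose by 1.31 (adjusted p = 0.000109) in the n3315-labelled libraries.

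Of 24 other genes of lysosomal lipid handling, 2 fell in crh-1(syb385), and 3 fell and 1 rose in the n3315-labelled libraries, with list medians of -0.16 and -0.29. Of all tested genes, 4.48% fell in crh-1(syb385), and 11.2% fell and 4.17% rose in the n3315-labelled libraries. The counts in the latter were near these shares. asah-1 fell by 1.27 (SE 0.24, adjusted p = 0.00201) in crh-1(syb385) and was -0.94 (SE 0.23, adjusted p = 0.00453) in the n3315-labelled libraries, less than 2-fold, although it was called there without wild-type replicate 2 or 3 or without replicate 4 labelled n3315. The palmitoyl-protein thioesterase gene ppt-1 and the glucocerebrosidase gene gba-4 fell by 1.25 (SE 0.21, adjusted p = 0.00029) and 1.32 (SE 0.30, adjusted p = 0.00241) in the n3315-labelled libraries. The call of gba-4 was lost without wild-type replicate 3. spin-3, which encodes a spinster-like transporter, rose by 1.69 (SE 0.40, adjusted p = 0.00329) there. The remaining called genes, named after their values were seen, were ncr-2, a homolog of human NPC1, which fell by 1.22 (adjusted p = 0.0411) in crh-1(syb385), and the acid sphingomyelinase gene asm-1, which fell by 1.02 (adjusted p = 0.000305) in the n3315-labelled libraries.

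The lips genes, another family of predicted lipases, were called in both directions. Among the 8 that were tested, 1 rose and 1 fell in crh-1(syb385), and 1 rose and 2 fell in the n3315-labelled libraries. Of all tested genes, 2.24% rose and 4.48% fell in crh-1(syb385), and 4.17% rose and 11.2% fell in the n3315-labelled libraries. lips-9 fell in both, by 1.88 (SE 0.56, adjusted p = 0.033) and 1.80 (SE 0.56, adjusted p = 0.0165), with libraries that overlapped wild type. The first call was lost in 9 of 18 alternatives and the second in 3, among them those without wild-type replicate 1 or without replicate 1 labelled n3315. lips-5 rose by 1.65 (SE 0.42, adjusted p = 0.0148) in crh-1(syb385), lips-10 rose by 1.32 (SE 0.29, adjusted p = 0.00187) and lips-3 fell by 1.24 (SE 0.36, adjusted p = 0.0115) in the n3315-labelled libraries. The lips-3 call was lost without wild-type replicate 1.

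Of 6 genes of lipid droplet lipolysis, abhd-5.1 fell in both mutants, by 1.17 (SE 0.27, adjusted p = 0.00855) and 1.66 (SE 0.28, adjusted p = 0.000258). Of all tested genes, 4.48% fell in crh-1(syb385) and 11.2% in the n3315-labelled libraries. abhd-5.1 encodes a relative of the human co-activator of adipose triglyceride lipase. atgl-1, the gene of that lipase, gave -0.17 (adjusted p = 0.308) and 0.21 (adjusted p = 0.118). None of the 9 genes of fatty acid carriers of the lbp family was called in either mutant. Of all tested genes, 6.72% were called in crh-1(syb385) and 15.4% in the n3315-labelled libraries, in either direction. lbp-8, the carrier known for its link to LIPL-4, was at 0, 7, 0 and 0 counts in wild type. The crh-1(syb385) libraries held 5, 6, 1 and 18 counts and the n3315-labelled libraries 5, 13, 17 and 11, so that the genotypes overlapped. Its log2 fold changes of 2.12 (SE 1.07, adjusted p = 0.198) and 2.66 (SE 1.04, adjusted p = 0.0517) were not called. lbp-8 passed the filter on low counts only through mutant libraries, since no wild-type library was above the minimum. Its calls are therefore no evidence of a rise. Without wild-type replicate 2, the only wild-type library with a count, wild type was left at 0 and both log2 fold changes were called. The second was also called by DESeq2 and with a replicate block. Over the alternatives the adjusted p lay between 0.0223 and 0.538 for the first and between 0.0046 and 0.122 for the second.

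**Figure D5:**
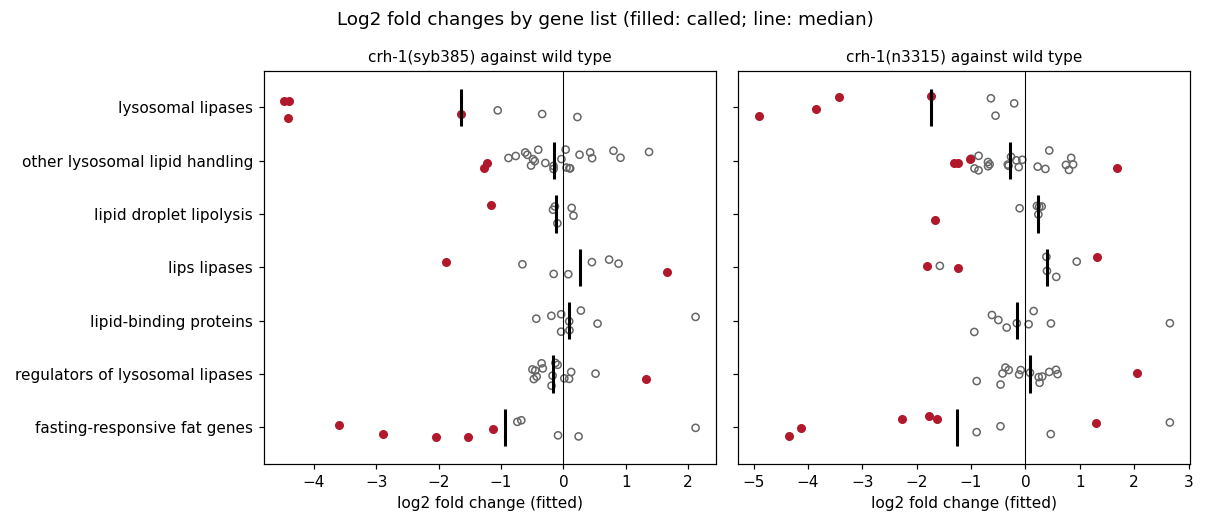
Fitted log2 fold change of every tested gene of the lysosomal lipases and the 6 lists around them, in crh-1(syb385) (left) and in the n3315-labelled libraries (right) against wild type. Filled points were called at an adjusted p below 0.05 and at least 2-fold, and vertical marks are list medians, which for the lysosomal lipases are -1.64 and -1.73 and for the fasting-responsive genes -0.94 and -1.26.

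Genes that mark the intestine, where the lipases act, went in both directions. Of 9 markers, 2 rose and 0 fell in crh-1(syb385), and 2 rose and 1 fell in the n3315-labelled libraries, with list medians of 0.69 and 0.64. Of all tested genes, 2.24% rose and 4.48% fell in crh-1(syb385), and 4.17% rose and 11.2% fell in the n3315-labelled libraries. At an adjusted p below 0.05 alone, 5 markers were higher and 1 lower in crh-1(syb385), and 5 higher and 3 lower in the n3315-labelled libraries. The called markers that rose were the same 2 in both mutants. The peptide transporter gene pept-1 had log2 fold changes of 1.27 and 1.73, and the intestinal actin gene act-5 had 1.44 and 1.09. asp-1, an aspartic protease gene, fell by 1.44 in the latter. ges-1 and elt-7 lay below wild type in both mutants without overlap of libraries. Their log2 fold changes were -0.45 and -0.91 for ges-1 and -0.33 and -0.78 for elt-7. All of these markers were named after their values were seen. Markers of muscle, hypodermis, neurons and germ cells, 14 genes that were each counted in every library, summed to 3330 to 5288 CPM in wild type, 6219 to 7699 CPM in crh-1(syb385) and 8556 to 9693 CPM in the n3315-labelled libraries. The sums do not hold for each marker: 3 had log2 fold changes below 0 in crh-1(syb385) and 5 in the n3315-labelled libraries. dpy-7 (hypodermis) gave -0.75 and -2.55, unc-64 (neurons) -0.53 and -0.89, and myo-3 (body wall muscle) -0.41 and -0.39. They too were named after their values were seen. The part of tissue composition in the levels of the lipl genes was not tested.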

How the data were processed

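Poly(A)-selected libraries of whole day-1 adults were sequenced from both ends. The authors deposited raw counts per gene, made with STAR v2.7.5a on the WBcel235 build and featureCounts v1.5.0, with no normalization or pooling. Strandedness and the treatment of reads with several positions are not given in the sources used here. Groups came from the genotype labels.

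Counts were analysed in R v4.3.3 with edgeR v4.0.16: filterByExpr (minimum count 10, minimum total 15), TMM scaling, and the quasi-likelihood test with 1 term, genotype, over 12 libraries and Benjamini-Hochberg adjustment over 14511 genes. Fold changes used a prior count of 0.125 and log2 CPM values a prior count of 2. The fit was tested on simulated data. DESeq2 v1.42.0, other scaling, no filter, 2-genotype fits, a replicate block, a threshold of 2-fold inside the test and leaving out each library were alternatives.

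Members and lists were chosen with earlier results of these data known. Named were all lipl genes, up to 4 called genes per list with the largest change, and hlh-30, mxl-3, nhr-49, nhr-80, lbp-8 and atgl-1. The symbols abhd-5.3, lips-4, lips-14 and lips-16 were not matched. The reference annotation placed gene ends up to 424 nt from those of the table, whose positions are given. Replicates differed beyond sampling noise. They are biological replicates by the study's methods.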

Additional observations from a re-analysis of the deposited data

Results flagged for a closer look

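In 84 groups of 4 libraries from 28 genes, the members and the named list genes, 3 libraries stood far from the other 3 of their group by Dixon's criterion, which chance meets in about 1 in 20 groups. lips-5 was at 2.04 CPM in replicate 4 labelled n3315, against 1.02 to 1.18 CPM in the others. hlh-11 was at 12 CPM in wild-type replicate 1, against 8.39 to 8.85 CPM. lbp-8 was at 0.326 CPM in wild-type replicate 2 and at 0 in the other wild-type libraries. None of these was a lysosomal lipase.

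Among the list genes named in the report by rule, the effects of the alleles differed between the mutants for 4 in the quasi-likelihood fit of edgeR, with p-values adjusted over all tested genes, given as the libraries labelled n3315 against crh-1(syb385). The log2 differences were -0.67 for ppt-1 (adjusted p = 0.0382), 0.87 for lips-10 (adjusted p = 0.0453), 0.73 for hlh-11 (adjusted p = 0.00287) and 0.38 for atgl-1 (adjusted p = 0.0228). These 4 differences were below 2-fold. Over the lists together 16 of 71 tested genes had an adjusted p below 0.05 between the mutants, as had 2618 of all 14511 tested genes. For lipl-5 all 4 libraries of crh-1(syb385) lay above the wild-type mean of 72.4 CPM and all 4 labelled n3315 lay below it, with a difference of -38.0 CPM between the means of the mutants. Whether the 2 effects differ in direction was not tested, and no p is given for lipl-5, since the lipl genes were chosen with their values known.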

How the results depend on the processing

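All log2 fold changes of the lipl genes kept their sign in 17 alternatives (16 for lipl-2 between the mutants), except that of lipl-6 between the mutants, which kept it in 15. The calls of lipl-1, lipl-2 and lipl-3 in both mutants were unaltered in 18 alternatives and that of lipl-6 was lost with the 2-fold threshold inside the test. Since these genes were chosen for their low mutant counts, this is no sign of stability. Leaving out each library gave 4 to 5 called members in crh-1(syb385), the fifth being lipl-4 without wild-type replicate 3 (DESeq2 called it too), 4 to 4 in the libraries labelled n3315 and 0 to 1 between the mutants, where lipl-5 was called without replicate 3 labelled n3315. Called list genes ranged from 6 to 14, from 13 to 19 and from 0 to 2. They were fewest in crh-1(syb385) without its replicate 1 or 4 (6), and were 7 without wild-type replicate 1 or 4 or crh-1(syb385) replicate 2. Between the mutants they were 0 without crh-1(syb385) replicate 2, and 2 without wild-type replicate 1 or 3 or without replicate 3 labelled n3315. All called genes ranged from 680 (without wild-type replicate 1) to 1405 (without wild-type replicate 3) in crh-1(syb385). They ranged from 2003 to 2349 in the libraries labelled n3315, and from 350 (without replicate 2 labelled n3315) to 677 between the mutants. The shares of all tested genes called in crh-1(syb385) thus move with these wild-type libraries. With the 2-fold threshold inside the test, 2, 3 and 0 list genes and 121, 625 and 38 of all tested genes were called (975, 2230 and 563 otherwise), and the lower share between the mutants moved from 61.6% to 44.7%. Between the mutants 2 list genes were called by DESeq2 and by the fit of only those genotypes. Same-numbered libraries correlated at -0.08 to 0.12 over 12 pairs, so the numbers do not pair them. With the replicate number as a block, 4, 4 and 0 members, 8, 16 and 1 list genes and 858, 2151 and 502 of all tested genes were called. Depth limited lipl-2 in the mutants, at 1 to 16 counts, and lipl-8.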
